A study of Mus musculus with 12 samples.

Results

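The lysosomal genes examined here were 56 of the 55536 genes in the deposited tables. They were picked by name: 38 listed genes of lysosomal hydrolases, their lipid carriers and lysosomal membrane proteins, plus every gene of the vacuolar proton pump whose symbol begins with Atp6v, provided that the mean over the 12 libraries reached 10 normalized counts. Before that minimum, 61 genes matched, and Atp6v0a4, Atp6v1c2, Atp6v1e2, Atp6v1fnb and Atp6v1g3 fell below it. The 56 members are 26 hydrolases, 3 soluble lipid carriers and activators, 9 membrane proteins and 18 pump subunits.

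The study read RNA from the stromal vascular fraction (SVF), the non-adipocyte cells released when fat is digested, of inguinal white adipose tissue (iWAT), to ask what ageing and loss of the receptor Pdgfrβ change. There were 3 groups of 4 male mice kept at room temperature on a mixed C57BL6/J-129SV background. The Pdgfrβ-KO mice were 12 months old and carried Sma-CreERT2, a fluorescent Rosa26 reporter (tdTomato or mTmG) and Pdgfrβ fl/fl, and had received tamoxifen on 2 consecutive days followed by a 7-day washout. The 12-month and the 2-month controls are called wild type in the labels, while the paper describes its control line as Sma-CreERT2 reporter mice without the floxed allele, and whether the sequenced controls of each age had received tamoxifen is not stated plainly. The Cre is driven by the smooth muscle actin promoter, so Pdgfrb was deleted only in cells that use it, whereas the RNA came from all SVF cells. The same 12-month controls serve in both comparisons.

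Lysosomes degrade glycans, lipids, proteins and nucleic acids that arrive by endocytosis, phagocytosis and autophagy. Their soluble hydrolases work at acid pH, which the vacuolar proton pump sets up: its V1 sector hydrolyses ATP in the cytosol and drives protons through the V0 sector in the membrane. Many of these genes carry the sequence bound by TFEB, TFE3 and MITF, transcription factors known for inducing lysosomal genes together, and in adipose tissue macrophages that take up lipid are known for a high lysosomal content.

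The core of that binding sequence is CACGTG, and the longer forms GTCACGTG and TCACGTGA, which both contain it, were searched on both strands in RefSeq promoters that reach from 250 bases before a transcript start to 50 bases after it. Of the 56 members, 46 matched an entry, with 55 promoters in all, and Aga, Asah1, Galns, Npc1, Atp6v0a2, Atp6v0d2, Atp6v1b2, Atp6v1c1, Atp6v1g1 and Atp6v1h had none. CACGTG stood in 14 of the 55 member promoters (25.5%), against 7.15% of all 32851 promoters of the same length. GTCACGTG stood in 11 (20.0%), against 2.25% of all promoters, and TCACGTGA in 6 (10.9%), against 0.974%. A match is a description of the letters and not evidence of binding. The densest run was upstream of Lamp1, the most abundant lysosomal membrane glycoprotein, and its 250 bases before the start are shown with every CACGTG in capitals (GRCm38.p6, plus strand, chr8:13158911-13159160).

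Lamp1: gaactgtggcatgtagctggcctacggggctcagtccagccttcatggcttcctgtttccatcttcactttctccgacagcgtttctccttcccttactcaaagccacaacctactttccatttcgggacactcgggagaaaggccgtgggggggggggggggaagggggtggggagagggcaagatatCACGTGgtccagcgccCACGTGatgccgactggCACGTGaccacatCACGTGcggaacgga

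The 4 copies begin 61, 45, 28 and 15 bases before the start. Stretches of 30 bases around the motif are shown for 6 more members, chosen to hold members that rose, fell or did not pass the test with age. They are the protease gene Lgmn (chr12:102439124-102439153, minus strand), the α-galactosidase gene Gla (chrX:134601182-134601211, minus strand), Cln3 (chr7:126583340-126583369, minus strand), the calcium channel gene Mcoln1 (chr8:3500462-3500491, plus strand) and the pump genes Atp6v0b (chr4:117887330-117887359, minus strand) and Atp6v1a (chr16:44139373-44139402, minus strand). The stretches of Lgmn, Cln3, Mcoln1 and Atp6v1a lie inside the gene as GENCODE annotates it, that of Atp6v0b overlaps its first bases, and that of Gla lies outside.

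Lgmn: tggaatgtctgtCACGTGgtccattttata
Gla: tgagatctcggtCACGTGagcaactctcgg
Cln3: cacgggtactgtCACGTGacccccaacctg
Mcoln1: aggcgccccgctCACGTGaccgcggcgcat
Atp6v0b: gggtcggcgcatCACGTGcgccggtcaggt
Atp6v1a: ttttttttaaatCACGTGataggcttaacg

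The change with age of members with and without the motif is given as a description. Of the 14 members with CACGTG, 4 were higher and 1 lower in 12-month than in 2-month controls, with a median log2 fold change of 0.18, and of the 32 matched members without it, 14 were higher and 1 lower, with a median of 0.26.

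Deposited values summed to 19.6 M to 21.9 M normalized counts per library (M stands for mega). The counts behind them were estimated at 13.8 M to 20.0 M in Pdgfrβ-KO libraries, 21.0 M to 29.0 M in 12-month controls and 21.4 M to 24.8 M in 2-month controls. The estimate of Pdgfrβ-KO replicate 4, the highest of its group, is the least certain, and 2 times its value lay outside the range searched. Only the other 3 Pdgfrβ-KO libraries, estimated at 13.8 M to 16.9 M, are therefore called shallower than the controls. Pdgfrb itself had 1882, 2145, 1707 and 1749 normalized counts in Pdgfrβ-KO SVF, 3000, 4380, 3258 and 2399 in 12-month controls and 2536, 2367, 2349 and 2407 in 2-month controls. It was lower in every Pdgfrβ-KO library than in any 12-month control (log2 fold change −0.77, limma adjusted p = 0.0160). Marker sums for the labelled tissue follow for Pdgfrβ-KO SVF, 12-month controls and 2-month controls in that order. The 13 fibroblastic progenitor markers had sums of 483337 to 825160, 341848 to 441457 and 620391 to 757387 normalized counts. The 8 endothelial markers had 32097 to 44912, 43508 to 73784 and 60764 to 83901. None of these 2 lists was at 0 in all libraries, which is a weak check. The 9 mature adipocyte markers had sums of 6731 to 12454, 7674 to 9744 and 5133 to 6410. Replicate 1 of the 12-month controls had the lowest total of macrophage markers of its group and is named below wherever it decides a call.

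Lysosomal transcripts took a larger share of the SVF transcriptome in the older mice. Together the 56 genes made up 0.831 to 0.956% of a library's normalized counts in Pdgfrβ-KO SVF, 0.678 to 0.812% in 12-month controls and 0.561 to 0.571% in 2-month controls, and these ranges do not overlap. The 3 soluble carriers and activators held 0.316 to 0.381%, 0.248 to 0.315% and 0.181 to 0.199% in the same order of groups, mostly from Psap. Hydrolases held 0.230 to 0.257% in Pdgfrβ-KO SVF, 0.172 to 0.198% in 12-month controls and 0.155 to 0.159% in 2-month controls. Membrane proteins (0.169 to 0.185% in Pdgfrβ-KO SVF and 0.152 to 0.177% in 12-month controls) and the pump (0.116 to 0.134% and 0.107 to 0.124%) overlapped between the 2 groups of 12 months, and both were above the 2-month controls (0.115 to 0.132% for membrane proteins and 0.0944 to 0.0973% for the pump). Averaged as log2(value + 1), which weights every gene alike, the hydrolases stood at 10.35 ± 0.04 in Pdgfrβ-KO SVF, 10.13 ± 0.10 in 12-month controls and 9.89 ± 0.03 in 2-month controls (SD, n = 4 each). The pump stood at 9.35 ± 0.10, 9.61 ± 0.19 and 9.28 ± 0.07, an average that the low genes Atp6v0d2 and Atp6v1b1 move. In bulk SVF, more cells of a type that is rich in lysosomes and more lysosomal RNA per cell cannot be told apart.

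**Figure D1:**
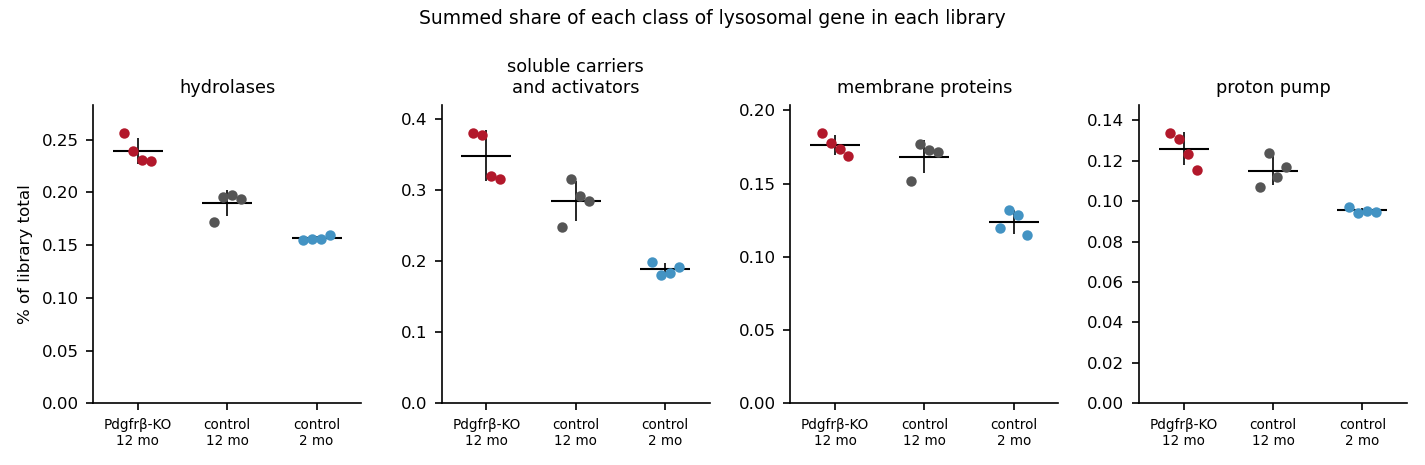
Share of each library's normalized counts (%) taken by the 26 hydrolases, 3 soluble carriers and activators, 9 membrane proteins and 18 pump subunits. Points are libraries, horizontal bars are means and vertical bars ±1 SD (n = 4 per group). All 4 classes lie lowest in the 2-month controls, and hydrolases are highest in Pdgfrβ-KO SVF.

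Between the ages, 25 of the 56 members were higher in 12-month than in 2-month controls (44.6%, where 11.3% of all 16399 genes tested were called higher), 2 were lower (11.4% of all genes were called lower), and 29 did not pass the test. The median log2 fold change of the members was 0.26, against −0.01 for all genes tested. In 27 members every 12-month control was above every 2-month control (12.3% of all genes), and in 3, Gla, Neu1 and Atp6v0a2, every one was below (12.5% of all genes). By class, 11 of 26 hydrolases, all 3 soluble carriers and activators, 4 of 9 membrane proteins and 7 of 18 pump subunits were higher, with median log2 fold changes of 0.26, 0.38, 0.29 and 0.22. Leaving out 1 library at a time gave 20 to 29 members called higher. The 29 came without 12-month control replicate 1, where Galc, Acp2, Ids and Atp6v0e joined (limma adjusted p = 0.0239, 0.0266, 0.0365 and 0.0135).

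Macrophage markers moved with this comparison: 20 of 26 were higher in 12-month controls and 0 were lower, their median log2 fold change was 0.94, none was at 0 in all libraries, and their summed level was 45035 to 61970 normalized counts in 12-month controls against 23469 to 31746 in 2-month controls. Trem2, a receptor of lipid-handling macrophages, averaged 414 ± 258 in 12-month controls (170 to 763) and 63.8 ± 15.9 in 2-month controls (51 to 87; SD, n = 4 each). Mast cells, which hold secretory granules of lysosomal kind, also had higher markers, with 7 of 8 called and sums of 4861 to 9115 in 12-month controls against 2447 to 3489 in 2-month controls. The part of either cell type in the result was not tested.

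Between the genotypes, few members passed. Lgmn, Man2b1 and Gusb were higher in Pdgfrβ-KO SVF than in 12-month controls (3 of 55 tested, 5.45%, where 4.96% of all 16344 genes tested were called higher), Atp6v0d2 was lower (4.46% of all genes were called lower), and 51 did not pass. The share called higher was thus near that of all genes. The median log2 fold change of the members was 0.16, against −0.01 for all genes. In 9 members every Pdgfrβ-KO library was above every 12-month control (Lgmn, Man2b1, Gusb, Naglu, Tpp1, Smpd1, Aga, Cln3 and Galc; 9.05% of all genes tested), and in 3 (Arsb, Ctns and Atp6v1b1, the last not tested) every one was below (8.06% of all genes). The count depended on the fit: with all 12 libraries in a single model 10 members were called higher, adding Hexa, Aga, Tpp1, Naglu, Galc, Cln3 and Atp6v1d, and leaving out 1 library at a time gave 1 to 5.

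Macrophage markers also separated the genotypes: 18 of 26 were higher in Pdgfrβ-KO SVF and 1, Gpnmb, was lower, with a median log2 fold change of 0.99 and summed levels of 85770 to 140265 normalized counts in Pdgfrβ-KO SVF against 45035 to 61970 in 12-month controls. Their part in the result was not tested. Of the 7 neutrophil markers 5 were tested, and all 5 were higher, where 4.96% of all genes tested were called higher. The sums over all 7 were 955 to 1749 in Pdgfrβ-KO SVF against 224 to 469 in 12-month controls. Mast cell markers overlapped, with sums of 7435 to 12303 in Pdgfrβ-KO SVF and 4861 to 9115 in 12-month controls. Of the lysosomal membrane proteins 0 of 9 and of the soluble carriers and activators 0 of 3 passed by limma between the genotypes, with 2 and 1 at an unadjusted p under 0.05.

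**Figure D2:**
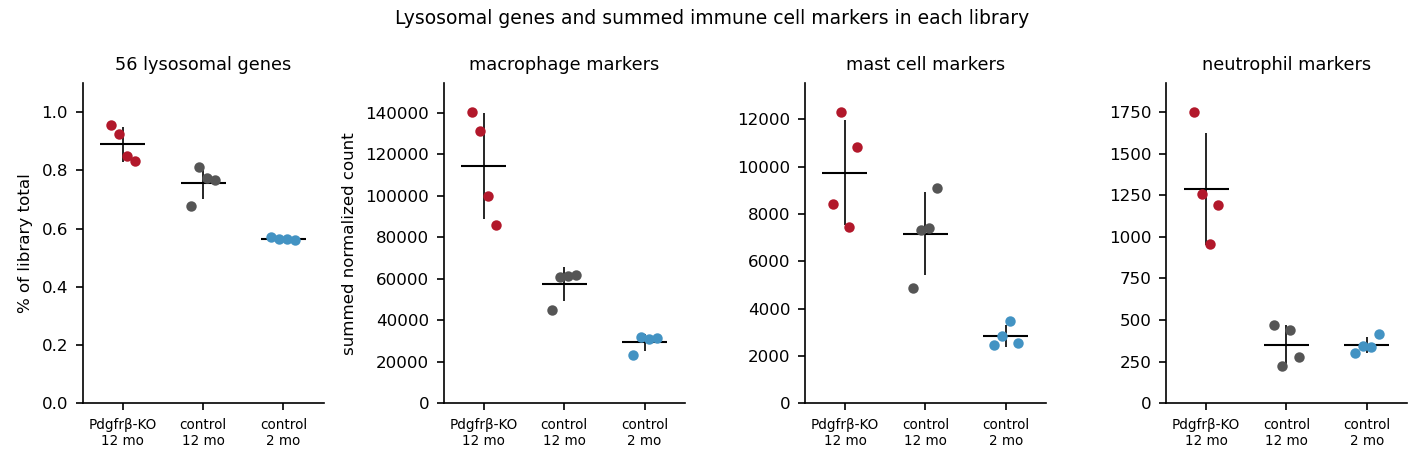
Share of library counts taken by the 56 lysosomal genes (%, left) and summed normalized counts of 26 macrophage, 8 mast cell and 7 neutrophil markers (right). Points are libraries, horizontal bars are means and vertical bars ±1 SD (n = 4 per group). Macrophage marker sums reach 85770 to 140265 in Pdgfrβ-KO SVF, above 12-month controls and those above 2-month controls, with no overlap.

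**Figure D3:**
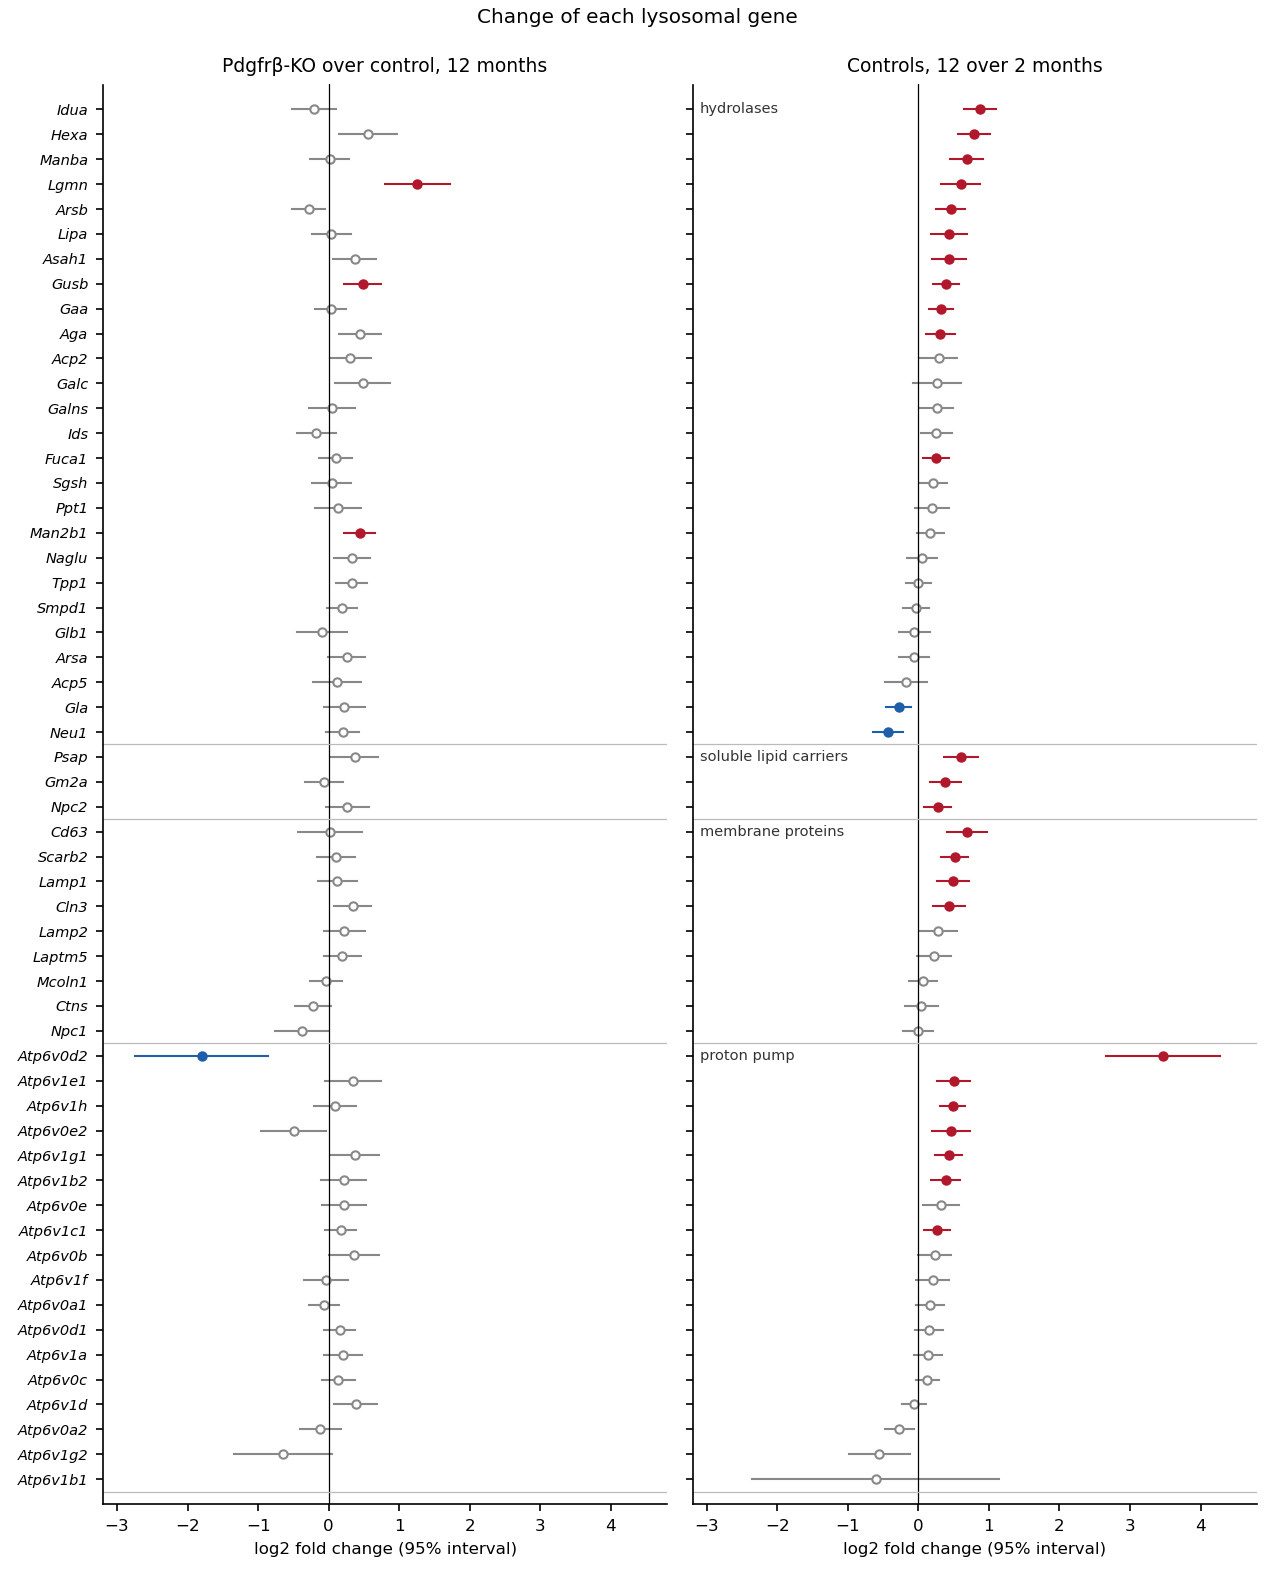
Log2 fold change of each of the 56 members with its 95% interval from limma, Pdgfrβ-KO over 12-month controls on the left and 12-month over 2-month controls on the right, grouped by class. Filled red points were called higher and filled blue points lower, and open grey points did not pass the test. Atp6v1b1 has no value on the left because it was not tested there. With age 25 members are red, and between genotypes 3.

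Glycosidases trim sugars from glycans and glycolipids. Of the 12 genes counted in this class, 7 were higher with age and 2 lower, where 11.3% of all genes tested were called higher and 11.4% lower. The count includes Aga, whose enzyme cuts the bond between asparagine and a glycan and is not strictly a glycosidase. Hexa encodes the α subunit of β-hexosaminidase, which cuts GM2 ganglioside, and had 3085, 4376, 3484 and 3888 normalized counts in 12-month controls against 2136, 2113, 2117 and 2183 in 2-month controls. The groups did not overlap, and the log2 fold change was 0.78 ± 0.10 (SE, limma adjusted p = 0.000394). In Pdgfrβ-KO SVF, Hexa had 6662, 7084, 4436 and 4131, the last below the highest 12-month control (log2 fold change 0.56 ± 0.19, limma adjusted p = 0.0867).

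Idua, the iduronidase that takes part in the breakdown of dermatan and heparan sulfate, passed with age and not between the genotypes. It had 340, 275, 280 and 400 normalized counts in Pdgfrβ-KO SVF, 368, 347, 400 and 366 in 12-month controls and 197, 187, 211 and 213 in 2-month controls. The age groups were fully apart (log2 fold change 0.87 ± 0.10, limma adjusted p = 0.000190), while the genotypes overlapped (−0.21 ± 0.14, adjusted p = 0.374). Manba, the β-mannosidase gene, had 887, 806, 765 and 696 in Pdgfrβ-KO SVF, 665, 931, 777 and 758 in 12-month controls and 475, 511, 448 and 500 in 2-month controls, and rose with age by 0.69 ± 0.11 on the log2 scale (limma adjusted p = 0.00109). Its Pdgfrβ-KO values lay inside the range of the 12-month controls.

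Gusb, which encodes β-glucuronidase, stepped up at both comparisons. It had 2618, 2499, 2189 and 1987 normalized counts in Pdgfrβ-KO SVF, 1490, 1838, 1710 and 1593 in 12-month controls and 1289, 1191, 1249 and 1317 in 2-month controls, with no overlap between any of the groups. The log2 fold change was 0.48 ± 0.12 for Pdgfrβ-KO (limma adjusted p = 0.0280) and 0.39 ± 0.09 for age (0.00777). The genotype call was lost without 12-month control replicate 1, 3 or 4 (adjusted p = 0.0858, 0.0636 and 0.0678) or without Pdgfrβ-KO replicate 1 or 2 (0.0834 and 0.0641) and without trend and robust estimation (0.0592), over a range of 0.00625 to 0.0858 in the 18 alternatives.

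Man2b1, the lysosomal α-mannosidase gene, was called between the genotypes and not between the ages. Its levels were 5929, 5810, 5149 and 5384 normalized counts in Pdgfrβ-KO SVF, 3818, 4060, 4242 and 4297 in 12-month controls and 3422, 3611, 3476 and 4124 in 2-month controls. All Pdgfrβ-KO libraries were above all controls, and the log2 fold change was 0.44 ± 0.10 against 12-month controls (limma adjusted p = 0.0211), against 0.17 ± 0.09 for age (0.186). The call was lost without 12-month control replicate 1, 2 or 3 (adjusted p = 0.0683, 0.0541 and 0.0511) or Pdgfrβ-KO replicate 1 (0.0670), over a range of 0.00567 to 0.0683 in all alternatives. The 2 comparisons share the 12-month controls, and the difference between their effects was not tested.

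Neu1 and Gla went the other way with age. Neu1, the sialidase that removes terminal sialic acids, had 2523, 2518, 2263 and 2377 normalized counts in Pdgfrβ-KO SVF, 2197, 2018, 1874 and 2385 in 12-month controls and 2776, 3012, 2563 and 3053 in 2-month controls. It was lower in all 12-month than in all 2-month controls (log2 fold change −0.43 ± 0.10, limma adjusted p = 0.00877). Gla, which removes terminal galactose from glycolipids, had 1874, 1448, 1880 and 1318 in Pdgfrβ-KO SVF, 1292, 1323, 1403 and 1513 in 12-month controls and 1583, 1786, 1665 and 1665 in 2-month controls. Its drop with age, −0.28 ± 0.08, passed at an adjusted p of 0.0304 by limma but not in 9 of the 18 alternatives, among them the fits without 12-month control replicate 1 or 2 (0.0760 and 0.0525) and without 2-month control replicate 2, 3 or 4 (0.0911, 0.0734 and 0.0694). The genotypes overlapped in both genes.

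Of the other genes counted with the glycosidases, Gaa (acid α-glucosidase, which breaks down glycogen), Aga and Fuca1 were higher with age. Their log2 fold changes were 0.32, 0.31 and 0.25, with limma adjusted p of 0.0130, 0.0341 and 0.0489. Those of Aga and Fuca1 passed in 8 and 7 of the 18 alternatives, with adjusted p up to 0.122 and 0.116, and each was lost on leaving out any of the 2-month controls or 12-month control replicate 2 or 4 (0.0503 to 0.0841 for Aga and 0.0769 to 0.116 for Fuca1), Fuca1 also without replicate 3 (0.0603). Naglu did not pass with age, and Glb1 did not pass in either comparison. Glb1 encodes the lysosomal β-galactosidase whose activity is read in the stain for senescent cells, and had 365, 595, 522 and 586 normalized counts in Pdgfrβ-KO SVF, 464, 542, 593 and 577 in 12-month controls and 570, 535, 540 and 612 in 2-month controls. All 3 groups overlapped in Glb1.

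Sulfatases remove sulfate from glycosaminoglycans and sulfatide, and 1 of 5 was higher with age. With 11.3% of all genes tested called higher, that count is not read as a result about the class. Arsb, which acts on dermatan and chondroitin sulfate, had 908, 937, 1094 and 1078 normalized counts in Pdgfrβ-KO SVF, 1112, 1193, 1364 and 1221 in 12-month controls and 827, 975, 935 and 815 in 2-month controls. The 12-month controls lay above both other groups in every library, with a log2 fold change of 0.46 ± 0.09 with age (limma adjusted p = 0.00513) and of −0.28 ± 0.11 for Pdgfrβ-KO (0.123, not passed). Arsb shares 39.9% of its exon bases with genes on the opposite strand, and whether the counting used strand is not stated. Ids, the iduronate sulfatase gene, had 944, 932, 1141 and 1142 in Pdgfrβ-KO SVF, 999, 1196, 1392 and 1113 in 12-month controls and 955, 971, 993 and 998 in 2-month controls, with the age groups apart by 1 normalized count (log2 fold change 0.25 ± 0.10, limma adjusted p = 0.0885). Galns and Sgsh were likewise above in every 12-month control without passing (adjusted p = 0.103 and 0.101), and Arsa overlapped. Shared exon bases were 21.6% for Sgsh, 18.8% for Arsa and 12.8% for Hexa.

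Among the 5 lipid hydrolases, Asah1 and Lipa were higher with age, where 11.3% of all genes tested were called higher. Asah1, the acid ceramidase gene, had 3047, 2616, 2559 and 2166 normalized counts in Pdgfrβ-KO SVF, 1605, 2093, 2244 and 2097 in 12-month controls and 1335, 1451, 1573 and 1568 in 2-month controls. The age groups did not overlap (log2 fold change 0.43 ± 0.11, limma adjusted p = 0.0158), and Pdgfrβ-KO replicate 4 fell inside the range of the 12-month controls (0.37 ± 0.14, adjusted p = 0.115). Lipa encodes the acid lipase that frees cholesterol and fatty acids from lipoproteins and lipid droplets, and had 1801, 1753, 1953 and 1887 in Pdgfrβ-KO SVF, 1409, 2022, 2018 and 1818 in 12-month controls and 1215, 1304, 1358 and 1454 in 2-month controls. Replicate 1 of the 12-month controls lay inside the 2-month range, and the log2 fold change was 0.43 ± 0.12 (limma adjusted p = 0.0205). That call was lost without 2-month control replicate 1 or 2 (0.0518 and 0.0513) and without trend and robust estimation (0.0560). Galc, which cleaves galactosylceramide of myelin, Ppt1 and Smpd1 did not pass in either comparison.

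Lgmn showed the largest difference between the genotypes of any hydrolase. It encodes legumain, the asparaginyl endopeptidase that activates cathepsins and processes antigens, and lies at chr12:102394084-102439813 (GRCm38). Its levels were 12580, 9120, 7700 and 6284 normalized counts in Pdgfrβ-KO SVF, 2689, 4349, 3595 and 4036 in 12-month controls and 2295, 2352, 2439 and 2455 in 2-month controls. No groups overlapped, and the spread was widest in Pdgfrβ-KO SVF, where the highest library held 12580 and the lowest 6284. The log2 fold change was 1.26 ± 0.21 (2.39-fold) for Pdgfrβ-KO, with a limma adjusted p of 0.00484 and a range of 0.000589 to 0.0193 over the 18 alternatives, and 0.60 ± 0.13 (1.51-fold) for age (adjusted p = 0.00702, range 0.000534 to 0.0410). It was the only member called in every alternative between the genotypes.

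Summed macrophage markers stood at 140265, 131037, 99982 and 85770 normalized counts in the same 4 Pdgfrβ-KO libraries, and their part in the Lgmn values was not tested. Tpp1, a tripeptidyl peptidase gene, had 1601, 1412, 1736 and 1648 normalized counts in Pdgfrβ-KO SVF, 1199, 1307, 1364 and 1221 in 12-month controls and 1153, 1300, 1300 and 1339 in 2-month controls. Its Pdgfrβ-KO libraries were all above the controls of both ages, but the test against 12-month controls did not pass (log2 fold change 0.33 ± 0.10, limma adjusted p = 0.0680). The acid phosphatase genes Acp2 and Acp5, the second known for its activity in osteoclasts and macrophages, passed in neither comparison, and Acp5 had 1190 to 1582 in Pdgfrβ-KO SVF, 1048 to 1683 in 12-month controls and 1320 to 1621 in 2-month controls.

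The 3 soluble carriers and activators present lipids to the hydrolases, and all of them were higher with age. Psap encodes prosaposin, which is cut into the saposins that activate sphingolipid hydrolases, and had the highest level per kilobase of exon of all members (17143 normalized counts per kilobase over the 12 libraries, where Lamp1 came next at 3307). It had 70658, 70204, 54617 and 52473 normalized counts in Pdgfrβ-KO SVF, 40404, 55249, 48090 and 47597 in 12-month controls and 32311, 29716, 29708 and 33467 in 2-month controls. The 12-month controls were all above the 2-month controls (log2 fold change 0.61 ± 0.11, limma adjusted p = 0.00276), while Pdgfrβ-KO replicates 3 and 4 fell below the highest 12-month control (0.37 ± 0.15, adjusted p = 0.147).

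Gm2a, the activator that offers GM2 to β-hexosaminidase, had 1965, 1966, 2263 and 2398 normalized counts in Pdgfrβ-KO SVF, 1925, 2120, 2606 and 2344 in 12-month controls and 1597, 1772, 1791 and 1694 in 2-month controls (age log2 fold change 0.38 ± 0.10, limma adjusted p = 0.0173). The genotypes overlapped in Gm2a. Npc2, which hands cholesterol to the membrane protein Npc1, had 10650, 10049, 8671 and 7131 in Pdgfrβ-KO SVF, 6967, 7499, 7366 and 8294 in 12-month controls and 6474, 6109, 6426 and 5817 in 2-month controls. The age groups were apart, with a log2 fold change of 0.28 ± 0.09 and a limma adjusted p of 0.0398 that passed in 9 of the 18 alternatives and was lost on leaving out any of the 2-month controls (0.0535 to 0.110) or 12-month control replicate 2 or 4 (0.0502 and 0.103). Its partner Npc1 had 671, 552, 941 and 901 in Pdgfrβ-KO SVF, 873, 899, 1139 and 1020 in 12-month controls and 918, 1017, 946 and 1039 in 2-month controls, with overlap between all groups.

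**Figure D4:**
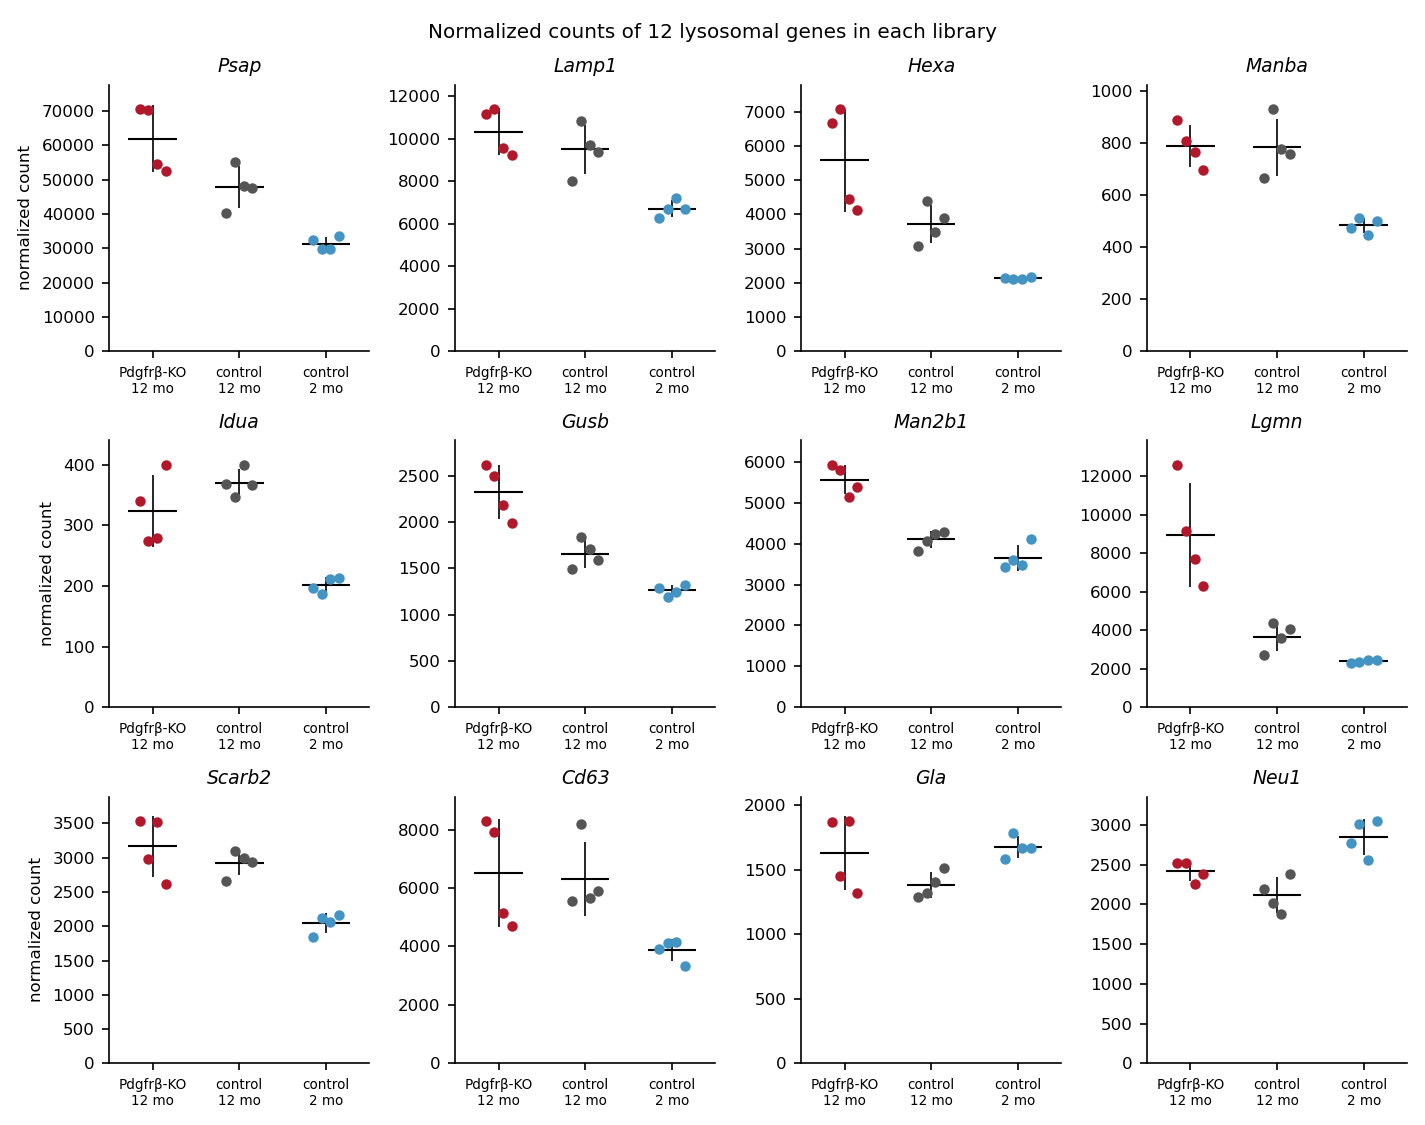
Normalized counts of 12 members in each library, with every axis starting at 0. Points are libraries, horizontal bars are means and vertical bars ±1 SD (n = 4 per group). Lgmn reaches 6284 to 12580 in Pdgfrβ-KO SVF, above every control, while Gla and Neu1 have their lowest means in 12-month controls.

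Of the 9 membrane proteins, Scarb2, Cd63, Lamp1 and Cln3 were higher with age in every 12-month control and in each of the 18 alternatives. Scarb2, or LIMP-2, carries glucocerebrosidase to lysosomes, and had 3540, 2987, 3520 and 2615 normalized counts in Pdgfrβ-KO SVF, 2667, 3096, 2993 and 2943 in 12-month controls and 1838, 2125, 2059 and 2167 in 2-month controls (age log2 fold change 0.52 ± 0.09, limma adjusted p = 0.00159). The tetraspanin gene Cd63 had 8300, 7910, 5139 and 4683 in Pdgfrβ-KO SVF, 5538, 8197, 5648 and 5886 in 12-month controls and 3903, 4122, 4159 and 3322 in 2-month controls (age 0.69 ± 0.13, adjusted p = 0.00331 by limma). Replicates 1 and 2 of Pdgfrβ-KO stood well above replicates 3 and 4 in Cd63, which straddled the 12-month controls.

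Lamp1, whose promoter run of motifs is shown above, had 11151, 11406, 9557 and 9211 normalized counts in Pdgfrβ-KO SVF, 8019, 10853, 9725 and 9378 in 12-month controls and 6249, 6684, 7222 and 6703 in 2-month controls. It was 0.49 ± 0.10 higher with age on the log2 scale (limma adjusted p = 0.00596), and the genotypes overlapped (0.12 ± 0.13, adjusted p = 0.573). Cln3, a membrane protein gene mutated in a childhood neuronal storage disease in humans, had 670, 578, 582 and 605 in Pdgfrβ-KO SVF, 474, 445, 575 and 432 in 12-month controls and 359, 348, 364 and 345 in 2-month controls. All 3 groups were apart in Cln3, with a log2 fold change of 0.43 ± 0.11 for age (limma adjusted p = 0.0135) and 0.34 ± 0.12 for Pdgfrβ-KO (0.0949, not passed).

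The remaining membrane proteins passed in neither comparison. Laptm5, a lysosomal protein of blood cell lineages, had 10123, 9440, 9721 and 10131 normalized counts in Pdgfrβ-KO SVF, 8150, 7458, 8678 and 10384 in 12-month controls and 6984, 8146, 7372 and 6943 in 2-month controls. Its age estimate of 0.23 ± 0.11 had a limma adjusted p of 0.156, and the groups of both comparisons overlapped. Lamp2 had estimates of 0.29 for age (adjusted p = 0.109, limma) and 0.22 for Pdgfrβ-KO (0.299). Mcoln1 had 690 to 774 in Pdgfrβ-KO SVF, 712 to 843 in 12-month controls and 673 to 764 in 2-month controls, and the cystine exporter gene Ctns had 271 to 310, all below the 12-month controls (320 to 366), and 301 to 367 in 2-month controls.

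In the proton pump, 5 of 10 subunits of the V1 sector and 2 of 8 of the V0 sector were higher with age, and 0 were lower. Those higher were Atp6v1h, Atp6v1g1, Atp6v1e1, Atp6v1b2, Atp6v1c1, Atp6v0d2 and Atp6v0e2. Of all genes tested, 11.3% were called higher and 11.4% lower. Atp6v1h, a subunit needed for ATP hydrolysis, had 1868, 1781, 1517 and 1248 normalized counts in Pdgfrβ-KO SVF, 1428, 1590, 1372 and 1564 in 12-month controls and 998, 1089, 1106 and 1051 in 2-month controls. It rose with age by 0.49 ± 0.08 on the log2 scale (limma adjusted p = 0.00167) and overlapped between the genotypes. The stalk subunit Atp6v1e1 had 3618, 3416, 2660 and 2022 in Pdgfrβ-KO SVF, 2168, 2556, 1844 and 2491 in 12-month controls and 1614, 1474, 1593 and 1665 in 2-month controls (age 0.50 ± 0.11, limma adjusted p = 0.00623). Pdgfrβ-KO replicate 4 was the lowest of its group in both genes.

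Atp6v1c1 had a log2 fold change of 0.27 ± 0.08 with age (limma adjusted p = 0.0402) that passed in 7 of the 18 alternatives, with adjusted p up to 0.127, and was lost on leaving out any 2-month control (0.0504 to 0.112) or 12-month control replicate 2, 3 or 4 (0.0505 to 0.115). Ubiquitous subunits without a call in either comparison included Atp6v1a, Atp6v1d, Atp6v1f, Atp6v0a1, Atp6v0b, Atp6v0c, Atp6v0d1 and Atp6v0e. Counts of Atp6v0c can be shared with processed copies of the gene. The a2 subunit gene Atp6v0a2 had 1350, 1277, 1734 and 1738 in Pdgfrβ-KO SVF, 1789, 1462, 1727 and 1589 in 12-month controls and 1882, 1833, 1996 and 2208 in 2-month controls. Every 12-month library was below every 2-month library, and the age estimate of −0.27 ± 0.09 just missed the threshold (limma adjusted p = 0.0553; 0.0482 without 12-month control replicate 1 and 0.0445 with weights per library).

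The largest log2 fold change among the tested estimates was that of Atp6v0d2, an isoform subunit. Atp6v1b1, listed at 0 in every Pdgfrβ-KO library, was not tested between the genotypes and is outside this ranking. Atp6v0d2 (chr4:19876841-19922605, GRCm38) encodes the d2 subunit of V0, known from osteoclasts and macrophages, where Atp6v0d1 is the ubiquitous form. Atp6v0d2 had 59, 28, 62 and 28 normalized counts in Pdgfrβ-KO SVF, 60, 251, 175 and 171 in 12-month controls and 11, 17, 12 and 10 in 2-month controls. All 12-month controls were above all 2-month controls, and replicate 1 was far below the other three. The log2 fold change with age was 3.47 ± 0.37 (limma adjusted p = 9.55e-05, up to 0.00175 in the 18 alternatives).

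Between the genotypes, Atp6v0d2 fell by 1.80 ± 0.43 on the log2 scale (limma adjusted p = 0.0256). The groups overlapped only through 12-month control replicate 1, whose 60 lay below the 62 of Pdgfrβ-KO replicate 3. The call was lost without 12-month control replicate 2, 3 or 4 (adjusted p = 0.0713, 0.0722 and 0.0618) or Pdgfrβ-KO replicate 2 (0.0566) and without trend and robust estimation (0.0558), and the range over all alternatives was 0.00669 to 0.0722. Atp6v0d1 had 1595, 1567, 1543 and 1537 in Pdgfrβ-KO SVF, 1207, 1553, 1420 and 1447 in 12-month controls and 1165, 1279, 1292 and 1310 in 2-month controls, and passed in neither comparison. Per kilobase of exon, Atp6v0d2 stood at 16.3 in Pdgfrβ-KO SVF, 60.5 in 12-month controls and 4.60 in 2-month controls, against 870, 785 and 704 for Atp6v0d1, so the d2 form was the minor one in every group.

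A few macrophage and osteoclast genes had the order of group means of Atp6v0d2, highest in 12-month controls, and most listed markers of these cells did not. The 4 given here were chosen after their values were seen, and the 2 comparisons share the 12-month controls. Gpnmb, a glycoprotein of lipid-laden macrophages, averaged 1684 in Pdgfrβ-KO SVF, 4154 in 12-month controls and 1374 in 2-month controls (log2 fold changes −1.28 for Pdgfrβ-KO and 1.56 for age, limma adjusted p = 0.00202 and 3.96e-05). Dcstamp, which drives the fusion of osteoclasts and giant cells, averaged 6.75, 21.8 and 6.25 in the same order, with ranges of 4 to 14, 16 to 28 and 2 to 16. It reached the minimum for testing through the 12-month controls, the group where it is high, so its calls are not read as a result. The osteoclast protease gene Ctsk averaged 3013, 5328 and 2959 (−0.80 and 0.84, limma adjusted p = 0.0137 and 0.00466), and the integrin gene Itgax, from the list of dendritic cell markers, averaged 272, 647 and 236 (−1.23 and 1.40, limma adjusted p = 0.0100 and 0.000399). Of the osteoclast-like and giant cell markers, 3 of 7 tested were higher with age (Ctsk, Dcstamp and Mmp9), where 11.3% of all genes tested were called higher. In Pdgfrβ-KO 2 of 6 were lower (Ctsk and Dcstamp) and 1, Tnfrsf11a, higher, where the shares of all genes were 4.46% and 4.96%. These counts are small, include Dcstamp and are not read as a result about the list. Other markers had other orders: Trem2 averaged 450 in Pdgfrβ-KO SVF, 414 in 12-month controls and 63.8 in 2-month controls, Mmp9 averaged 1245, 896 and 586, and Nfatc1, the osteoclast transcription factor gene, averaged 1730, 2178 and 2653. Of the 26 macrophage markers Gpnmb, and of the 10 dendritic cell markers Itgax, was the 1 called lower in Pdgfrβ-KO. Whether these genes and Atp6v0d2 come from the same cells was not tested.

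**Figure D5:**
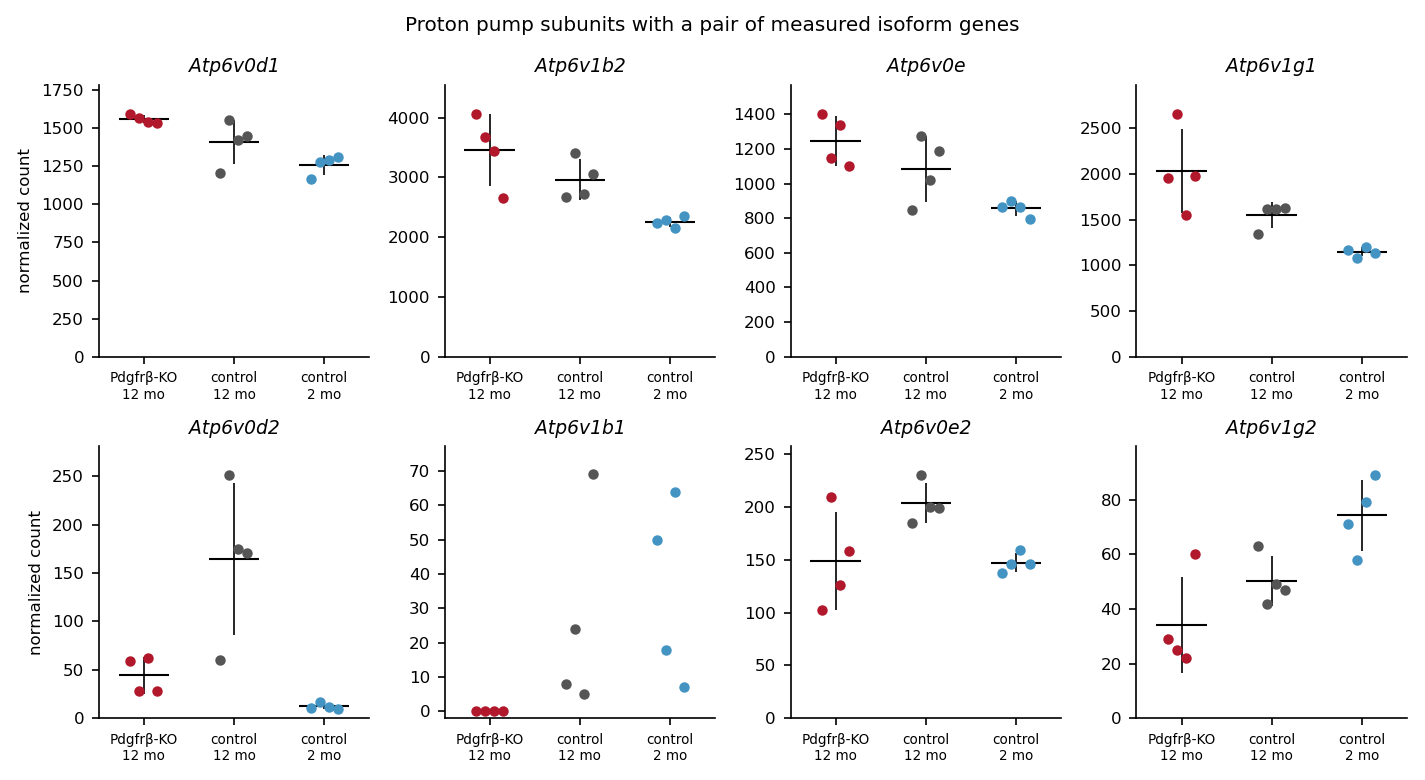
Normalized counts of pump subunits with a pair of measured isoform genes, the widely used form above and the restricted form below. Points are libraries, horizontal bars are means and vertical bars ±1 SD (n = 4 per group), left out for Atp6v1b1, which is listed at 0 in 4 libraries. Atp6v0d2 lies at 60 to 251 in 12-month controls, against 28 to 62 in Pdgfrβ-KO SVF and 10 to 17 in 2-month controls.

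The B subunit of V1 has a ubiquitous form, Atp6v1b2, and a form of kidney and inner ear epithelium, Atp6v1b1. Atp6v1b2 had 4064, 3682, 3448 and 2647 normalized counts in Pdgfrβ-KO SVF, 2666, 3408, 2720 and 3055 in 12-month controls and 2240, 2292, 2148 and 2349 in 2-month controls, and was higher with age (log2 fold change 0.39 ± 0.09, limma adjusted p = 0.0124). Atp6v1b1 was listed at 0 in all 4 Pdgfrβ-KO libraries, at 8, 24, 5 and 69 in 12-month controls and at 50, 18, 64 and 7 in 2-month controls, and was too low to be tested between the genotypes. No fold is given against libraries listed at 0. Without the minimum on low values it entered the fit, but 4 libraries listed at 0 have no spread on the log2 scale, so no call is read from that. Epithelial genes did not all follow it. The keratin genes Krt5 and Krt14 were also listed at 0 in all 4 Pdgfrβ-KO libraries, with 3 to 319 and 5 to 532 in 12-month controls and 4 to 42 and 1 to 39 in 2-month controls. Krt8 had 11 to 30 in Pdgfrβ-KO SVF against 23 to 361 in 12-month controls (log2 fold change −2.58, limma adjusted p = 0.0397). Krt19 had 111 to 462 against 80 to 613, Epcam 72 to 122 against 70 to 299, Cdh1 35 to 54 against 50 to 134 and Krt18 20 to 31 against 22 to 430 in the same order, and these 4 did not pass (limma adjusted p = 0.986, 0.287, 0.0867 and 0.0591). The part of epithelial RNA in the Atp6v1b1 values was not tested.

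The other isoform pairs had smaller estimates than Atp6v0d2, and none of their genes passed between the genotypes. For Pdgfrβ-KO the log2 fold changes were −0.50 ± 0.21 for Atp6v0e2 and −0.65 ± 0.32 for Atp6v1g2 (limma adjusted p = 0.157 and 0.219). Those of Atp6v0e and Atp6v1g1 were 0.21 and 0.37 (limma adjusted p = 0.369 and 0.149). Atp6v0e2 had 102, 209, 126 and 158 normalized counts in Pdgfrβ-KO SVF, 185, 230, 200 and 199 in 12-month controls and 137, 146, 159 and 146 in 2-month controls, and was higher with age (log2 fold change 0.46 ± 0.12, limma adjusted p = 0.0182), while its counterpart Atp6v0e had 1099 to 1403, 848 to 1275 and 797 to 901. The age call of Atp6v0e2 was lost with all 12 libraries in a single fit (adjusted p = 0.102) and without the minimum on low values (0.0511). Atp6v1g1 had 1961, 2659, 1550 and 1980 in Pdgfrβ-KO SVF, 1340, 1616, 1622 and 1627 in 12-month controls and 1173, 1084, 1197 and 1137 in 2-month controls, and was higher with age in every library (0.43 ± 0.09, limma adjusted p = 0.00505). Atp6v1g2, the form known from brain, had 29, 25, 22 and 60 in Pdgfrβ-KO SVF, 63, 42, 49 and 47 in 12-month controls and 71, 58, 79 and 89 in 2-month controls. Its age estimate was −0.55 ± 0.20 (limma adjusted p = 0.0648, and 0.0419 without 12-month control replicate 1).

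Set beside the 2-month controls, 35 of the 56 members lay higher in every Pdgfrβ-KO library (19.9% of all 16960 genes did so), 3 lay lower (Neu1, Atp6v0a2 and Atp6v1b1; 20.0% of all genes) and 18 overlapped. These groups differ in both age and genotype and no test was made. By class, 16 of 26 hydrolases, 5 of 9 membrane proteins, 11 of 18 pump subunits and all 3 soluble carriers and activators lay higher.

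Other lysosomal genes were read from a second list of 24, of which 23 were tested. With age, 10 were higher and 1, Sidt2, lower, where 11.3% of all genes tested were called higher and 11.4% lower. Between the genotypes 5 were higher and 0 lower, where the shares of all genes were 4.96% and 4.46%. The median log2 fold change of the list was 0.17 in both comparisons. Dnase2a, the lysosomal DNase gene, averaged 1135 in Pdgfrβ-KO SVF, 763 in 12-month controls and 481 in 2-month controls (log2 fold changes 0.56 and 0.66, limma adjusted p = 0.0391 and 0.000955). Grn, which encodes progranulin, averaged 15106, 7878 and 5364 in that order of groups (0.92 and 0.54, limma adjusted p = 0.0202 and 0.0128), and the phospholipase gene Pla2g15 averaged 1463, 785 and 528 (0.89 and 0.56, limma adjusted p = 0.00680 and 0.00649). Atp13a2, a lysosomal polyamine exporter gene, averaged 2759, 1552 and 1387, and passed for Pdgfrβ-KO (0.83, limma adjusted p = 0.000794) and not for age (0.16, 0.184).

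Of 32 genes of lysosome biogenesis and sorting, 4 were higher with age (Borcs5, Mitf, Lamtor1 and Lamtor4) and 2 lower (Mtor and Flcn), where 11.3% of all genes tested were called higher and 11.4% lower, and in Pdgfrβ-KO 1 was higher (Nagpa) and 1 lower (Igf2r; 4.96% and 4.46% of all genes), with medians of 0.05 and 0.06. These counts are not read as a result about the list. Borcs5, a subunit gene of the complex that moves lysosomes outward, averaged 271 in Pdgfrβ-KO SVF, 222 in 12-month controls and 106 in 2-month controls (higher with age, limma adjusted p = 0.000398). Mitf averaged 411 in Pdgfrβ-KO SVF, 462 in 12-month controls and 257 in 2-month controls (age log2 fold change 0.87, limma adjusted p = 0.00138). The related factor genes Tfeb and Tfe3 passed in neither comparison, with age estimates of 0.23 and 0.05 (limma adjusted p = 0.140 and 0.713) and Pdgfrβ-KO estimates of 0.32 and 0.04 (0.112 and 0.877). Igf2r, a mannose 6-phosphate receptor that sorts hydrolases to lysosomes, averaged 2001 in Pdgfrβ-KO SVF and 3121 in 12-month controls (−0.65, limma adjusted p = 0.0122). M6pr, another such receptor in the list, averaged 3068 and 2817 and did not pass (0.13, limma adjusted p = 0.446). Among 24 autophagy genes, 4 were higher (Bnip3, Gabarap, Gabarapl1 and Atg5) and 2 lower (Wipi2 and Ulk1) with age, and in Pdgfrβ-KO Bnip3 was higher and Gabarapl1 lower, with medians of 0.03 and −0.06.

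Markers of further cell types were counted in the same fits, where 11.3% of all genes tested were called higher and 11.4% lower with age. In Pdgfrβ-KO these shares were 4.96% and 4.46%. Counts of 1 or 2 in such short lists are not read as a shift of a cell type. With age, 2 of 10 dendritic cell markers were higher and 1 lower, as were 2 and 1 of 8 T and NK cell markers, 5 and 2 of 13 fibroblastic progenitor markers, 1 and 6 of 9 mural cell markers, and 7 and 0 of 9 mature adipocyte markers. Lower with age were also 3 of 8 endothelial and 6 of 7 Schwann cell markers, while 1 of 7 B and plasma cell and 2 of 4 erythroid markers were higher, and 0 of 6 neutrophil and 0 of 6 skeletal muscle markers passed by limma, with 0 of each at an unadjusted p under 0.05. In Pdgfrβ-KO, 2 of 13 progenitor markers were higher and 3 lower, 3 of 5 erythroid and 1 of 8 B and plasma cell markers were higher, and all 6 skeletal muscle, 2 of 8 endothelial, 1 of 10 dendritic cell, 1 of 9 adipocyte and 1 of 7 Schwann cell markers were lower. Of 8 mast cell markers there 1 was higher and 1 lower, and 0 of 9 mural cell and 0 of 8 T and NK cell markers passed by limma, with 5 and 0 at an unadjusted p under 0.05. Their part in the lysosomal results was not tested.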

How the data were processed

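Polyadenylated RNA from 12 libraries was read, 1 per mouse. Per the submitters' processing notes the tools were Trim Galore 0.6.0, cutadapt, FastQC, STAR 2.7.0e and DESeq2 1.26.0, on GRCm38. The deposited values are scores: the authors scaled each gene count by a DESeq2 size factor and rounded the quotient, called a normalized count here. The gene counter and its use of strand are not given in the sources used here. Of per-sample columns, 0 were left unused. The table of controls had 27 gene names changed to dates and 1 wrong identifier, replaced from the same lines of the other table. The columns of the 12-month controls hold the same values in both (100% of genes).

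Differences of log2(value + 1) were tested by limma, version 3.58.1, under R 4.3.3 (trend and robust estimation, two-sided, Benjamini-Hochberg adjustment over all genes tested, threshold 0.05). Genes entered a comparison with a value of 10 or more in 4 or more of its 8 libraries. Fold changes of low genes are understated on this scale. Because the values are normalized and rounded, no count model was fitted. Counts behind each library were estimated from the uneven spacing of its low values. For Pdgfrβ-KO replicate 4 the estimate could also be 2 times as large. The fit and the depth estimate were tested on simulated data. Each comparison was also refitted under 18 alternatives. Per-kilobase levels used merged exons of GENCODE vM21, promoters came from RefSeq (GRCm38.p6), and coordinates count from 1. Python 3.11.15 with pandas 2.3.3, numpy 2.4.6 and matplotlib 3.10.9 gave tables and plots.

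The members, the gene lists and the cell type markers were chosen with earlier results of these data known. Values of every library are given for up to 4 members of a class past the threshold, up to 2 that did not pass, pump subunits measured as a pair, and genes in a count of 5 or fewer. The keratins and other epithelial genes were added after their values were seen.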

Additional observations from a re-analysis of the deposited data

Results flagged for a closer look

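In each of the 168 sets of 4 libraries (56 members in 3 groups), the library farthest from the others was compared with Dixon's 95% critical value, which chance passes in about 1 of 20 sets. It was passed in 5. In Pdgfrβ-KO SVF, Galns had 209 normalized counts in replicate 2, where the others had 291 to 296, and Sgsh had 693 in replicate 4, where the others had 497 to 522. In 12-month controls, Cd63 had 8197 in replicate 2 (others 5538 to 5886), Mcoln1 had 843 in replicate 2 (others 712 to 729) and Atp6v1g1 had 1340 in replicate 1 (others 1616 to 1627). No cause was tested.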

How the results depend on the processing

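Between the ages the number of members higher stayed within 20 to 29 in the 18 alternatives (25 as reported), and 20 of the 27 called members passed in each of them. The number lower (2 as reported) was 1 without the minimum on low values, without trend and robust estimation, with all 12 libraries in 1 fit and with the replicate block, 3 with weights per library, and 1 to 3 on leaving out 1 library. Between the genotypes the number higher (3 as reported) was 2 without trend and robust estimation, 5 with weights per library, 10 with all 12 libraries in 1 fit, 5 with the replicate block, and 1 to 5 on leaving out 1 library. The number lower (1 as reported) was 2 without the minimum, 0 without trend and robust estimation, 2 with the replicate block, and 0 to 2 on leaving out 1 library. Without the minimum more genes were tested, among them Atp6v1b1, whose call between the genotypes is not read as a result. The other causes were not tested. Of the 4 called members, 1 (Lgmn) passed in every alternative.

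The labels do not say that same-numbered libraries are paired. Their deviations correlated at −0.22 to 0.16 for age and −0.02 to 0.37 for Pdgfrβ-KO. The highest correlation with a library of another number was −0.0504 to 0.1826 for age and −0.0165 to 0.365 for Pdgfrβ-KO. So few correlations cannot decide whether a pairing exists, and the block is given only as an alternative fit. In 16 estimates that did not pass, the sign changed in at least 1 alternative, and no direction is given for these. With age, leaving out 1 library gave log2 fold changes of −0.100 to 0.0174 for Glb1, −0.0588 to 0.000391 for Smpd1, −0.0467 to 0.0281 for Tpp1, −0.122 to 0.0156 for Arsa, −0.00876 to 0.0863 for Ctns and −0.0759 to 0.0519 for Npc1. For Pdgfrβ-KO it gave −0.0134 to 0.0828 for Gaa, −0.169 to 0.0652 for Glb1, −0.0593 to 0.102 for Manba, −0.0785 to 0.0951 for Lipa, −0.0044 to 0.169 for Galns, −0.0669 to 0.0927 for Sgsh, −0.116 to 0.16 for Cd63, −0.0638 to 0.0196 for Mcoln1, −0.145 to 0.0283 for Atp6v1f and −0.134 to 0.0115 for Gm2a. Weights per library gave −0.0354 for Tpp1 and −0.0176 for Ctns with age. For Npc1 with age, rescaling by the upper quartile gave 0.00908 and quantile normalization 0.00384. For Cd63 in Pdgfrβ-KO, quantile normalization gave −0.0661.

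The lower estimated depth of 3 Pdgfrβ-KO libraries and 4 mice per group limit what can be seen, above all for Atp6v0d2, Atp6v1b1 and Atp6v1g2. Nothing in the sources says that libraries of a group differ in more than the mouse.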
